A study of Mus musculus with 2 samples.

Results

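The Hedgehog (Hh) pathway is described through 9 genes that carry or send the signal: the ligand gene Ihh, the co-receptor genes Boc, Cdon and Gas1, the transducer genes Smo, Kif7 and Sufu, and the transcription factor genes Gli2 and Gli3. They were chosen by name, as 9 of the 27998 genes of the deposited tables, to stand beside Gli1, Ptch1 and Hhip, the 3 target genes usually read as a measure of Hh signaling. The cells came from the metaphysis of the femur of Gli1-CreERT2; Ai9 mice of mixed background, aged 1 month. In these mice tamoxifen, given on 3 days, lets the Cre made from the Gli1 gene switch on the red protein tdTomato, so that the sorted tdTomato+ CD31- CD45- Ter119- cells are those that expressed Gli1 at that time, and their progeny. The mice, all given tamoxifen, then received 3 daily injections of vehicle or of teriparatide at 400 ng per g of body weight. Teriparatide is the active fragment of parathyroid hormone used to build bone. The 5 mice of a condition, 3 of them male and 2 female, gave 1 library, in which their cells are taken as pooled, so that no difference between the libraries has a replicate check and every interval covers counting error alone.

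Hh ligands bind the receptor Ptch1 with the help of the cell surface proteins Boc, Cdon and Gas1. Bound Ptch1 releases Smo, a membrane protein that moves into the primary cilium. There Smo acts on the kinesin Kif7 and on Sufu, which otherwise holds the Gli proteins back. Gli2 then acts mainly as an activator of target genes, while Gli3 without signal is cut into a repressor. In the growth plate the ligand Ihh is made by prehypertrophic and early hypertrophic chondrocytes, and cells near it respond.

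The vehicle library held 1286 cell barcodes and 10567335 unique molecular identifiers (UMIs, each 1 captured mRNA molecule), and the teriparatide library 2142 barcodes and 26270041 UMIs. After the limits of the study on detected genes and mitochondrial UMIs, 549 and 1217 cells were kept, of which 424 and 607 were mesenchymal, with medians of 12236 and 21287 UMIs. The sort was against CD45 and Ter119, yet 73 and 442 kept cells were hematopoietic and 51 and 165 erythroid, and these cells enter below only as a background. Of the mesenchymal cells with a sex call, 52.6% were male with vehicle and 90.0% with teriparatide, so that sex and treatment cannot be told apart except by values within called cells. The libraries shared 2 barcodes, 1 of them among mesenchymal cells.

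Clusters were named from markers, with the members, the target genes, the pathway lists and the marker genes kept out of the clustering. Chondrocyte-like osteoprogenitor (COP)-like cells, with Sox9, Col2a1 and Acan, numbered 66 with vehicle and 264 with teriparatide. Preosteoblast (preOB)-like cells numbered 59 and 53, osteoblast (OB)-like cells 113 and 130, and marrow adipogenic lineage precursor (MALP)-like cells 125 and 80. A small cluster led by Col10a1 and Ihh, called hypertrophic chondrocyte-like, held 7 and 22 cells. A cluster of 54 and 58 cells of low depth carried all 5 MALP markers but stayed unnamed, since S100a8 and Hba-a1 were among its leading genes. The preOB-like cluster carried genes of mural cells, which wrap blood vessels, beside its own markers. All 5 mural markers were seen in it in both libraries, at a summed 1405 CPM with vehicle and 1763 CPM with teriparatide, where no other class exceeded 240 CPM. CPM are UMIs of a gene per 1000000 UMIs of the cells added up. Markers of some other cell types differed between the libraries. Mesenchymal cells with a UMI of the hematopoietic marker Ptprc had been taken out, so Ptprc was at 0 in every mesenchymal class by design. In the COP-like cells 4 of 7 hematopoietic markers with vehicle and 6 with teriparatide were seen, at a summed 9.39 and 66.1 CPM. Of the 6 erythroid markers 2 and 5 were seen there, at a summed 5.52 and 42.7 CPM. OB markers summed there to 841 CPM with vehicle and 2904 CPM with teriparatide (5 and 6 of 6 seen, Dmp1 at 0 with vehicle). The largest part of the teriparatide sum was Ibsp, at 75.1 and 1155 CPM, beside Col1a1 at 204 and 703 CPM and Sp7 at 51.4 and 57.8 CPM. Ibsp stood higher in the hypertrophic chondrocyte-like cells (12104 and 12645 CPM) than in the OB-like cells (2379 and 5655 CPM). MALP markers summed in the COP-like cells to 31.5 and 14.2 CPM (4 and 5 of 5 seen, Adipoq at 0 with vehicle). Mural markers summed to 9.39 and 4.65 CPM in the same cells. Their part in the differences below was not tested. Gli1 itself had 9 and 75 UMIs in the COP-like cells and between 0 and 3 in each other class. Endothelial markers summed to at most 9.98 CPM in any class.

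The sequences just upstream of 2 members are shown because these genes had the patterns that set them apart, Ihh by the cells that held it and Gas1 by its differences between classes and libraries. The RefSeq table of promoters on GRCm38.p6 had a window for 8 of the 9 members. Each sequence below gives the 250 bases before the start site, on the strand of the gene, with CG dinucleotides in capitals. Ihh lies at chr1:74945315-74951672 on the minus strand, and the bases upstream of it at chr1:74951673-74951922 are 72.0% G or C, with 24 CG dinucleotides. Gas1, a gene of 1 exon, lies at chr13:60174405-60177365 on the minus strand. These gene positions and those given below are from GENCODE vM21 on GRCm38. The bases upstream of its RefSeq start at chr13:60177536-60177785 are 58.8% G or C, with 10 CG dinucleotides. Over all 32851 windows the medians were 52.4% and 6 CG dinucleotides.
Ihh: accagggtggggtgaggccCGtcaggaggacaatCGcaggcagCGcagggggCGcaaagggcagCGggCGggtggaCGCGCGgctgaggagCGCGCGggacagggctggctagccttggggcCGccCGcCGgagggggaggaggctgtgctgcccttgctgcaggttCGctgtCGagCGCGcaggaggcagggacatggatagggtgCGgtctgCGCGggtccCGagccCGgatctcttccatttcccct
Gas1: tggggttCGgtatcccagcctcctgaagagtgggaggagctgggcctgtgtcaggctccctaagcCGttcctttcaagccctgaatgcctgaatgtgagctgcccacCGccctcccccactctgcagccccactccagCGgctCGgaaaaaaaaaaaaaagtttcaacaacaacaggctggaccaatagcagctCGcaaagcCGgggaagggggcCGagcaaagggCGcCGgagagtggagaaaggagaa
The 9 letters GACCACCCA, to which Gli proteins are known to bind, were searched on both strands from 250 bases before to 50 after the start. They were in 0 of the 8 members' windows and in 0 of the 2 windows of Ptch1 and Hhip, against 0.253% of all windows, which says only that these letters are not there. For Cdon and Ptch1 the RefSeq start used lies well inside the GENCODE gene positions, so their windows are not at the outer start of the gene.

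Most Ihh UMIs of both libraries were in the smallest class. The 7 hypertrophic chondrocyte-like cells of the vehicle library held 136 of its 142 mesenchymal Ihh UMIs (95.8%, exact 95% interval 91.0 to 98.4), and the 22 such cells of the teriparatide library held 783 of 1150 (68.1%, 65.3 to 70.8). Over both libraries the share was 71.1% (68.6 to 73.6). In this class Ihh stood at 1457 CPM (1222 to 1723) with vehicle and 1194 CPM (1112 to 1280) with teriparatide, levels that lay close together beside the distance to every other class. A UMI of it was seen in 4 of 7 and 19 of 22 of these cells, with up to 72 and 156 UMIs in 1 cell. The class itself made up 1.65% and 3.62% of the mesenchymal cells. The same cells held 0 UMIs of Gli1, Hhip and Gas1 in both libraries, and of Ptch1 0 with vehicle and 5 with teriparatide. With 93356 UMIs in the vehicle cells a gene of up to 32.1 CPM could be missed there, and with 655905 in the teriparatide cells one of up to 4.57 CPM.

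**Figure D1:**
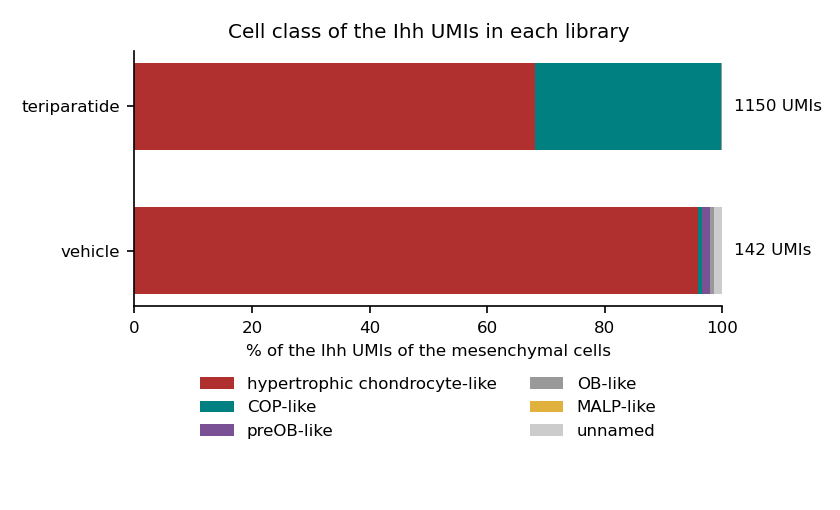
Share of the Ihh UMIs of all mesenchymal cells (horizontal axis, %) that each cell class held in the vehicle and the teriparatide library, with the total number of UMIs at the right. The hypertrophic chondrocyte-like cells held 95.8% of 142 UMIs and 68.1% of 1150 UMIs, and nearly all others of the teriparatide library were in COP-like cells.

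COP-like cells held 1 UMI of Ihh in the vehicle library (0.552 CPM, 0.0140 to 3.08) and 364 in the teriparatide library (45.8 CPM, 41.2 to 50.7). The log2 ratio of teriparatide to vehicle was 6.37, with a counting interval of 3.89 to 11.68 that is wide because of the lone vehicle UMI. The teriparatide UMIs came from few cells. A UMI was seen in 11.0% of the 264 cells, against 0.606% of the erythroid cells, and after thinning to 3300 UMIs per cell in 4.62% against 0.735%. The median COP-like cell of this library held 30875 UMIs and the median erythroid cell 10463. Of the 364 UMIs 314 lay in 10 cells with at least 10 each, and these 10 cells also held 1358 of the 1700 Col10a1 UMIs of the class. Of the 10 cells 6 were in the cluster led by Ppa1 and Ndufa4l2, 3 in the one led by Chad and Stc2 and 1 in the one led by Cpm and Sfrp5. Where every cell was classed by its own marker genes in place of its cluster, 97.7% of the Ihh UMIs of both libraries were in hypertrophic chondrocyte-like cells, and the log2 ratio in the COP-like cells was 2.37. All 5 markers of hypertrophic chondrocytes were seen in the COP-like cells of both libraries. They summed to 432 CPM with vehicle and 963 CPM with teriparatide. The largest part of both sums was Runx3, at 208 and 315 CPM. In the hypertrophic chondrocyte-like cells Runx3 stood lower, at 32.1 and 35.1 CPM. Col10a1 in the COP-like cells was at 1.66 CPM (3 UMIs) with vehicle and 214 CPM (1700 UMIs) with teriparatide. The part of these 5 markers in the Ihh ratio was not tested beyond the classing of single cells. The preOB-like, OB-like and MALP-like cells held between 0 and 3 UMIs of Ihh per library.

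The co-receptor genes had different homes among the classes. Gas1, whose protein is tied to the membrane by a lipid anchor, was highest in the preOB-like cells, at 312 CPM (272 to 356) with vehicle and 407 CPM (362 to 456) with teriparatide. MALP-like cells followed with 96.5 and 84.0 CPM. In the OB-like cells Gas1 stood at 42.1 CPM with vehicle and 60.4 CPM with teriparatide, and in the COP-like cells at 59.1 and 18.9 CPM. The order of the classes below the MALP-like cells thus differed between the libraries, and every step in the order was larger than its counting interval in both. The vehicle order of COP-like and OB-like cells rested on few cells, since without the 5 richest cells of each class it was 21.2 CPM in the former and 29.3 CPM in the latter, as in the teriparatide library (11.1 and 46.2 CPM). With vehicle those 5 were a larger part of the 66 COP-like than of the 113 OB-like cells. A UMI of Gas1 was seen in 76.3% and 81.1% of the preOB-like cells and in 1.96% and 0.606% of the erythroid cells, at median depths of 9268 and 11799 against 9189 and 10463 UMIs.

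Boc, an immunoglobulin-type receptor at chr16:44485049-44558897, was spread more evenly. It had 29.1 CPM (22.6 to 36.8) with vehicle and 30.7 CPM (24.7 to 37.8) with teriparatide in the OB-like cells, and 25.7 and 34.0 CPM in the preOB-like cells. Lower down came the COP-like cells (18.8 and 17.1 CPM) and the MALP-like ones (14.1 and 14.0 CPM). In the vehicle library no neighbours in this order differed beyond counting, and in the teriparatide library OB-like cells were above COP-like cells by 0.85 on the log2 scale (0.44 to 1.24). Cdon, the close relative of Boc at chr9:35421128-35507652, had another order. Its levels were 13.8 and 13.7 CPM in COP-like and 11.6 and 16.6 CPM in MALP-like cells, but 3.37 and 3.11 CPM in OB-like cells. Against the other 3 classes together, COP-like cells were higher in Cdon by 1.27 (0.42 to 2.11) with vehicle and 0.71 (0.18 to 1.27) with teriparatide on the log2 scale. The OB-like cells gave the most UMIs of this pool in both libraries, so this and later such contrasts weigh them most. COP-like cells were within counting error of MALP-like cells in Cdon with vehicle (0.25, -0.67 to 1.19). With teriparatide they stood below MALP-like and preOB-like cells. The step to preOB-like cells was within counting error (0.25, -0.74 to 1.12). The intervals of MALP-like (10.0 to 25.9 CPM) and COP-like cells (11.2 to 16.5 CPM) overlapped. PreOB-like cells held 0 Cdon UMIs with vehicle and 12, in 12 different cells, with teriparatide (16.3 CPM). This level was 3.82-fold the floor of 3 UMIs in the vehicle cells, and the counting interval of the log2 ratio began at 1.41. These were too few UMIs for a call.

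The makeup of the co-receptor pool follows from these levels. Each UMI stands for 1 captured 3' end whatever the length of the gene, but capture can differ between genes, so the shares are best read across classes. Gas1 made up 92.4% (88.3 to 95.4) of the Gas1, Boc and Cdon UMIs of the preOB-like cells with vehicle and 89.0% (85.1 to 92.1) with teriparatide. In the MALP-like cells the share was 79.0% and 73.3%, and in the OB-like cells 56.5% and 64.1%, where Boc gave 39.0% and 32.6%. Among these classes and the COP-like cells, the latter had the lowest Gas1 share with teriparatide and the highest Cdon share in both libraries. Their Gas1 share was 64.5% (56.7 to 71.7) with vehicle and 38.0% (33.2 to 43.0) with teriparatide. Boc gave 20.5% and 34.4% there, and Cdon 15.1% and 27.6%. The hypertrophic chondrocyte-like cells are left out of this order, since they held only 2 and 10 co-receptor UMIs. Gas1 gave 0 of these, and Cdon gave 2 with vehicle and 7 with teriparatide.

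**Figure D2:**
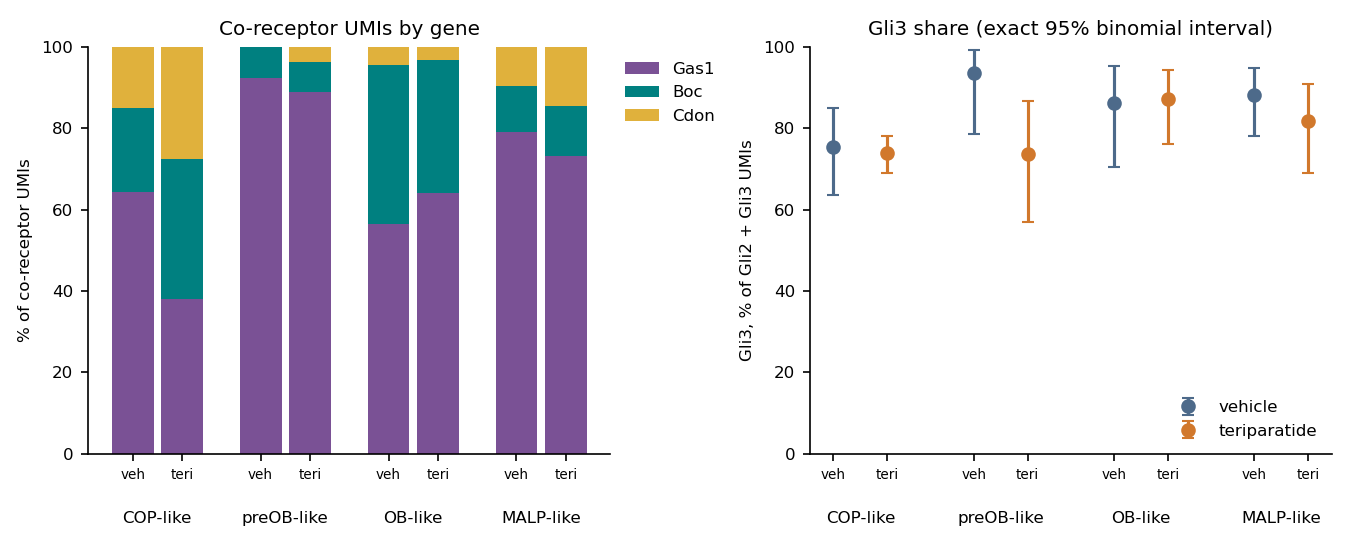
Left, share (%) of the co-receptor UMIs that were Gas1, Boc or Cdon in each class of the vehicle (veh) and teriparatide (teri) library. Right, share (%) of the Gli2 and Gli3 UMIs that were Gli3, with exact 95% binomial intervals. Among the COP-like, preOB-like, OB-like and MALP-like bars, Gas1 is highest in the preOB-like (92.4% and 89.0%) and lowest in the COP-like teriparatide bar (38.0%). Gli3 is above 70% in every class.

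Smo, at chr6:29735503-29761365, was seen in every class. MALP-like cells had 105 CPM (90.0 to 122) with vehicle and 119 CPM (99.8 to 141) with teriparatide, and COP-like cells 68.5 and 78.1 CPM. The OB-like cells were lowest, at 38.7 CPM (31.2 to 47.5) and 34.9 CPM (28.4 to 42.3), below their neighbour in the order beyond counting in both libraries. PreOB-like cells had 118 CPM with vehicle and 70.8 CPM with teriparatide. At least 1 Smo UMI was held by 81.8% and 83.3% of COP-like cells and by 1.96% and 4.24% of erythroid cells. The former held medians of 28718 and 30875 UMIs, and after thinning their shares were 20.0% and 24.2%, against 0% and 1.47%. The Hh target genes did not share this spread, since Ptch1 was higher in COP-like cells than in the other 3 classes by 2.78 (2.46 to 3.11) and 3.14 (2.83 to 3.46) on the log2 scale, where Smo differed by -0.10 (-0.41 to 0.20) and 0.37 (0.16 to 0.57). MALP-like cells were above COP-like cells in Smo by 0.62 (0.28 to 0.96) and 0.61 (0.33 to 0.88). Hhip, a target gene that binds the ligand, stood higher in COP-like cells than in the other 3 classes by 5.44 and 7.49.

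Sufu, at chr19:46396896-46488804, had its highest level in the MALP-like cells, at 31.8 CPM (23.7 to 41.7) with vehicle and 31.5 CPM (22.1 to 43.6) with teriparatide. PreOB-like cells followed with 21.4 and 16.3 CPM, a step within counting error in both libraries (0.57, -0.28 to 1.51, and 0.95, -0.03 to 2.02). OB-like cells had 9.26 and 8.63 CPM and COP-like cells 8.83 and 8.17 CPM, and these last classes did not differ beyond counting. PreOB-like cells were above OB-like cells beyond counting with vehicle alone. COP-like cells were lower in Sufu than the other 3 classes together by 1.10 (0.32 to 1.96) and 0.90 (0.40 to 1.41) on the log2 scale. Kif7, at chr7:79698098-79715720, leaned the opposite way. It stood in the COP-like cells at 17.1 CPM (11.6 to 24.3) with vehicle and 9.55 CPM (7.53 to 12.0) with teriparatide, whereas MALP-like cells had 1.83 and 5.25 CPM. COP-like cells were higher in it than the other 3 classes by 1.94 (1.10 to 2.81) and 0.87 (0.20 to 1.58). No neighbours in the order of Kif7 levels differed beyond counting in either library. Kif7 overlaps the gene Ticrr on the other strand, and the 3' kit keeps strand.

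Gli3, at chr13:15463235-15730026, gave more UMIs than Gli2 in every class. Its level in COP-like cells was 28.7 CPM (21.4 to 37.7) with vehicle and 35.1 CPM (31.1 to 39.4) with teriparatide, against 41.3 and 38.1 CPM for preOB-like and 36.7 and 39.4 CPM for MALP-like cells, levels that overlapped. The OB-like cells had 13.1 and 18.6 CPM and lay below their neighbour beyond counting in both libraries. Gli2, at chr1:118834132-119053619, was in COP-like cells at 9.39 CPM (5.47 to 15.0) with vehicle and 12.4 CPM (10.1 to 15.1) with teriparatide. The other classes held between 2 and 10 Gli2 UMIs per library, or 2.85 and 13.6 CPM for preOB-like, 2.11 and 2.76 CPM for OB-like and 4.89 and 8.75 CPM for MALP-like cells. Against those 3 classes together Gli2 was higher in COP-like cells by 1.56 (0.47 to 2.66) and 1.09 (0.47 to 1.75) on the log2 scale. COP-like cells did not differ beyond counting from their neighbours in the order of Gli2 levels in either library. Gli3 made up 75.4% (63.5 to 84.9) and 73.8% (69.1 to 78.2) of the Gli2 and Gli3 UMIs in COP-like cells and 86.1% (70.5 to 95.3) and 87.1% (76.1 to 94.3) in OB-like cells, with overlapping intervals.

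**Figure D3:**
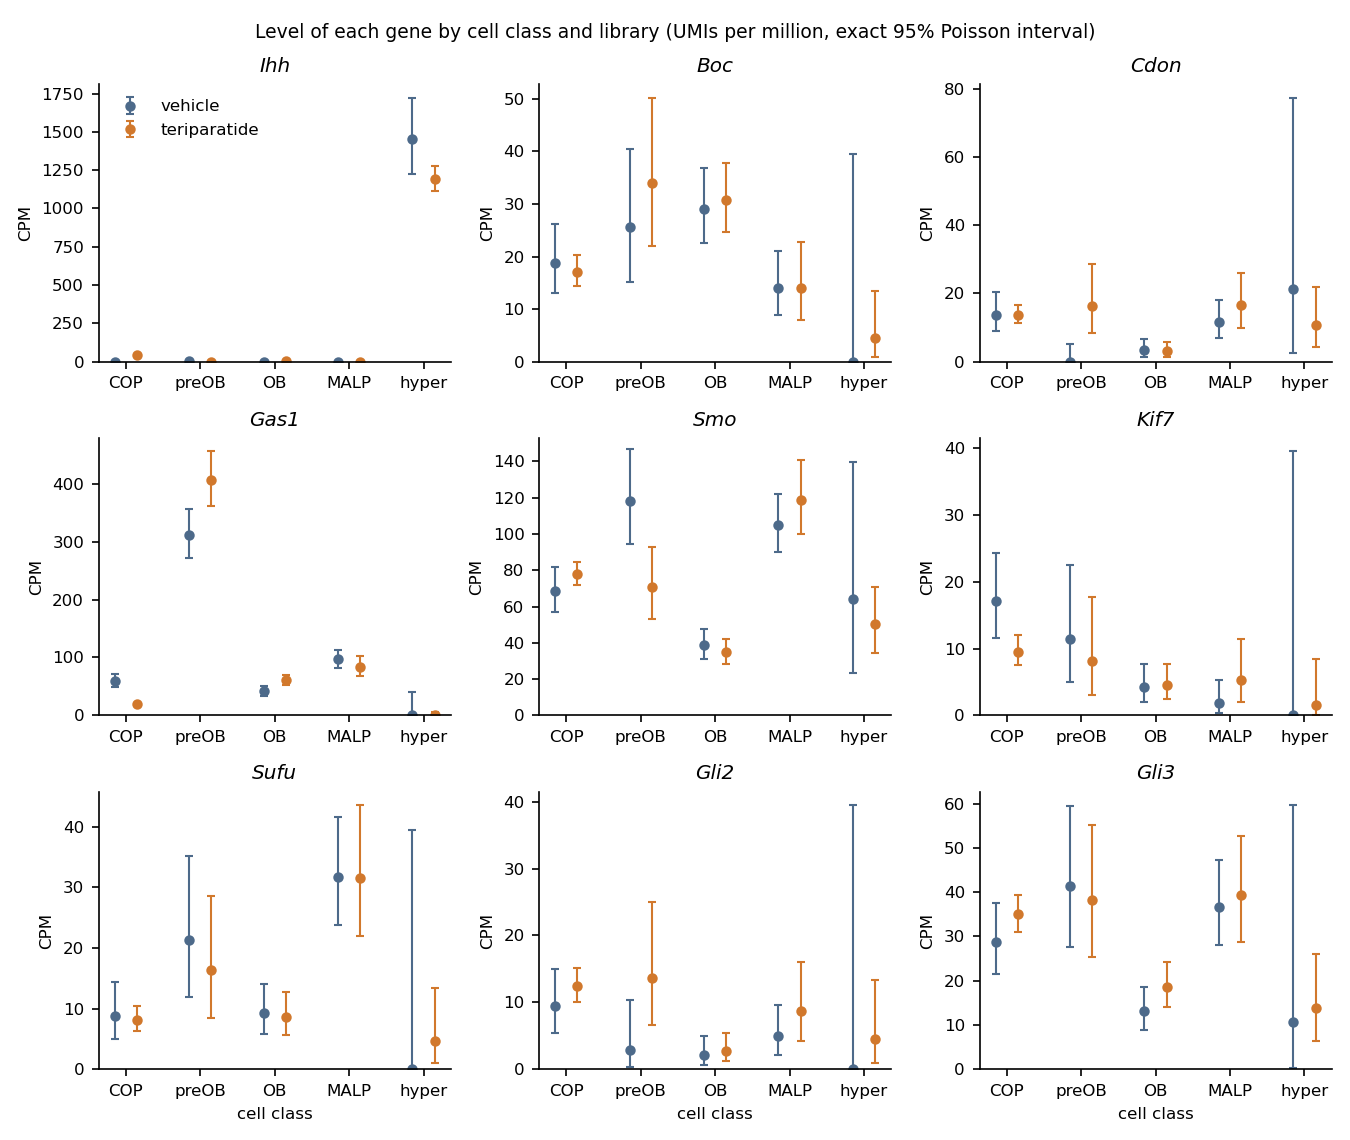
Level of each gene in CPM (vertical axes, from 0, a scale of its own for each gene) in the COP-like, preOB-like, OB-like, MALP-like and hypertrophic chondrocyte-like (hyper) cells of the vehicle and teriparatide libraries, with exact 95% Poisson intervals. Ihh stands out in the hypertrophic chondrocyte-like cells (1457 and 1194 CPM) and Gas1 in the preOB-like cells (312 and 407 CPM). The highest Sufu levels, in the MALP-like cells (31.8 and 31.5 CPM), overlap with those of the preOB-like cells, and the intervals of the 7 hypertrophic chondrocyte-like vehicle cells are wide.

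The members as a list did not stand out for the COP-like cells. Of the members with at least 50 UMIs over the 4 main classes, 2 of 7 had their highest CPM in COP-like cells in the vehicle library (Kif7 and Cdon), where 21.8% of all genes tested did. In the teriparatide library 2 of 9 did (Kif7 and Ihh), where 20.4% of all genes did. Gli2 and Ihh had under 50 UMIs in the vehicle library.

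Within the COP-like class the members were spread unevenly over its 4 clusters. The cluster led by Cpm, Meg3 and Sfrp5, with 125 cells, had the most Gli2 of these clusters, at 18.4 CPM with vehicle and 26.6 CPM with teriparatide. In the cluster led by R3hdml, Chad and Stc2, with 123 cells, Gli2 stood at 7.71 and 7.52 CPM, and in the one led by Ppa1, Ndufa4l2 and Fxyd2, with 67 cells, at 2.11 and 1.88 CPM. Boc fell off in the same order, with 53.6 and 31.9 CPM, then 3.08 and 13.6 CPM, then 0 and 3.28 CPM. Hhip was highest in the Cpm-led cluster too (235 CPM over both libraries), whereas Ptch1 was highest in the Chad-led one (225 CPM). Gli1 had 11.6 CPM there over both libraries, but with vehicle its 4 UMIs there (6.16 CPM) stood against 5 in the Ppa1-led cluster (10.6 CPM). Gas1 had 156 and 33.0 CPM in the Cpm-led cluster and no more than 6.16 CPM in the next clusters of either library. The 15 cycling cells of the Top2a- and Mki67-led cluster held 57 of the 257 Gas1 UMIs of the class, in 8 cells. Gli3 was more even, at 28.2, 38.6, 30.3 and 59.4 CPM over both libraries in the Cpm-, Chad-, Ppa1- and Top2a-led clusters. Kif7 ran the other way from Gli2 and Boc, with 6.13 CPM (3.74 to 9.46), 9.58 CPM (6.60 to 13.5), 16.5 CPM (11.9 to 22.2) and 24.2 CPM (12.1 to 43.3) in the same order.

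**Figure D4:**
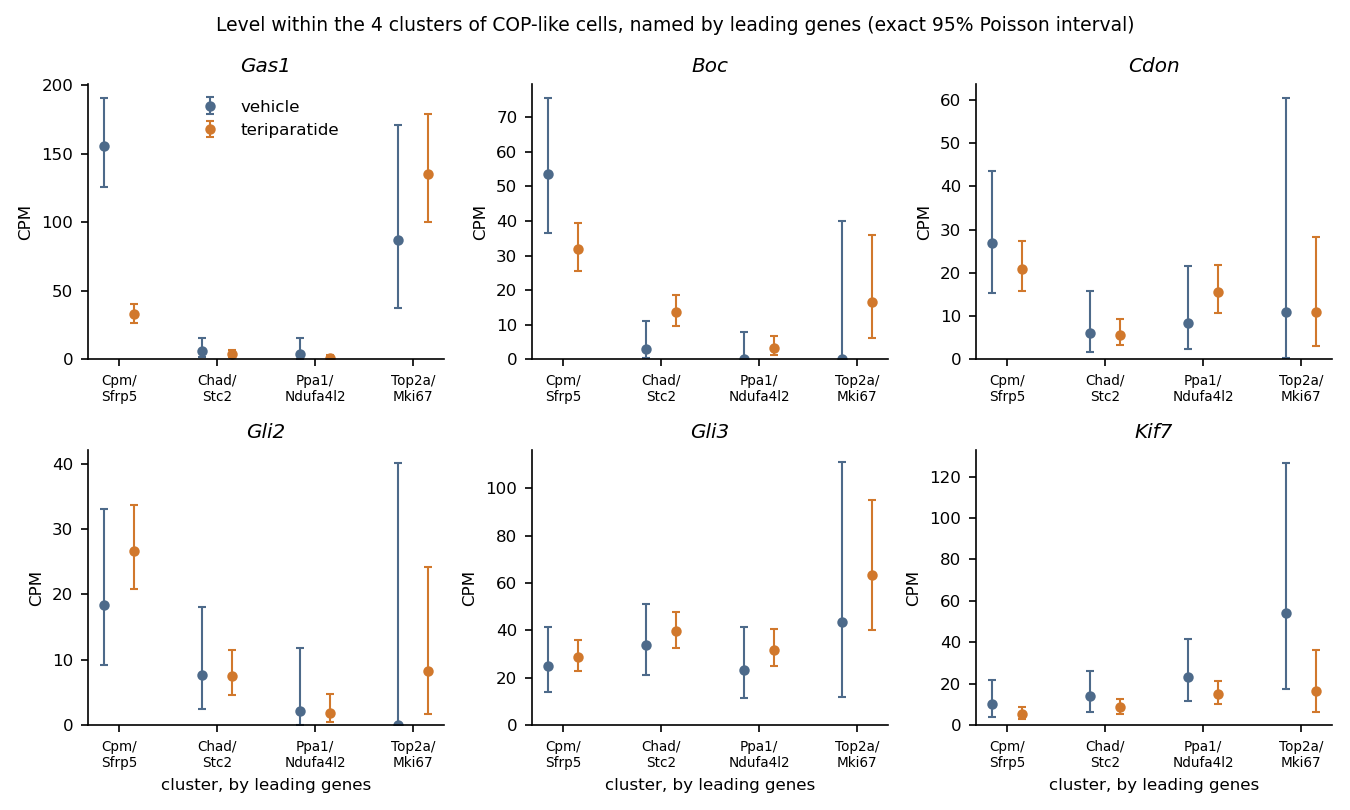
Level in CPM (vertical axes, from 0) of 6 genes in the 4 clusters of COP-like cells, named by leading genes, in the vehicle and teriparatide libraries, with exact 95% Poisson intervals. Gas1 (156 and 33.0 CPM), Boc (53.6 and 31.9 CPM) and Gli2 (18.4 and 26.6 CPM) are high in the Cpm- and Sfrp5-led cluster, Gas1 also in the cycling one, and the 4 cycling vehicle cells give wide intervals.

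Between the libraries most members lay within 1.5-fold. A difference was called where a gene had at least 50 UMIs in a class and a ratio of 1.5-fold or more, the fold of the study. In the COP-like cells all 9 members reached 50 UMIs, and 1 was higher in the teriparatide library (Ihh, above), 2 were lower (Gas1 and Kif7) and 6 lay within 1.5-fold. Of all 9230 genes so tested there, 8.29% were higher and 16.9% lower. In the preOB-like cells 1 of the 3 members with enough UMIs was lower (Smo) and 0 higher, against 18.0% and 8.64% of all genes. In the OB-like cells 0 of 4 were called, against 7.47% higher and 11.1% lower, and in the MALP-like cells 0 of 4, against 8.24% and 10.1%. The members' median log2 ratio was -0.01, -0.12, 0.30 and 0.04 in the COP-like, preOB-like, OB-like and MALP-like cells, beside -0.20, -0.14, -0.10 and -0.08 over all genes tested. Relative to these shifts, Gas1 and Gli3 in the OB-like cells (0.62 each) and Gli2 in the COP-like cells (0.61) also passed 1.5-fold.

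In the COP-like cells Gas1 had 59.1 CPM (107 UMIs) in the vehicle library and 18.9 CPM (150 UMIs) in the other, 3.13-fold lower (log2 -1.65, -2.02 to -1.28). The vehicle level rested on few cells, since 5 of the 66 held 66.4% of the UMIs, and without the 5 richest cells of each library the log2 ratio was -0.93. Those 5 were a larger part of the 66 vehicle than of the 264 teriparatide cells, which by itself tends to raise the ratio. Of the 4 clusters the Cpm-led one, with most of the UMIs, was lower by more than its counting interval (-2.24, -2.68 to -1.80), and in it 18 of 25 vehicle and 35 of 100 teriparatide cells held Gas1. The cycling cluster had 86.9 CPM with vehicle and 135 CPM with teriparatide. The clusters took nearly the same parts of the class in both libraries, 25, 24, 13 and 4 of 66 cells and 100, 99, 54 and 11 of 264. Among male-called cells the log2 ratio was -1.64 (-2.02 to -1.25), and among the 11 and 25 female-called cells 9 UMIs in the vehicle stood against 1.

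In the preOB-like and OB-like cells Gas1 leaned the other way without passing 1.5-fold. Among the former it was higher in the teriparatide library by 0.38 (0.13 to 0.64) on the log2 scale. The value depended on which cells were counted. Male-called cells gave 0.89 (0.49 to 1.30) and female-called cells, 22 and 6, gave -0.63 (-1.25 to -0.06). Cells with a UMI of the mural genes Rgs5, Acta2 or Myh11, 16 and 17 in number, had 326 CPM with vehicle and 174 CPM with teriparatide, and the 43 and 36 cells with none of them had 305 and 513 CPM. With a mitochondrial limit of 20% the log2 ratio was 0.05. In the OB-like cells the log2 ratio was 0.52 (0.16 to 0.89), and in the MALP-like cells -0.20 (-0.58 to 0.17). The OB-like class too differed in sex makeup, with 38 male-called and 62 female-called cells with vehicle and 100 and 9 with teriparatide.

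Kif7 stood 1.79-fold lower in the teriparatide COP-like cells (31 and 76 UMIs, log2 -0.84, -1.46 to -0.19). It was lower in each of the 4 clusters, by 0.94, 0.69, 0.63 and 1.71 on the log2 scale, though each interval included 0. Male-called cells gave -0.91 and female-called cells -0.54, and with each cell thinned to 3300 UMIs a Kif7 UMI was seen in 7.69% of vehicle and 1.92% of teriparatide cells. These shares were 5 of 65 cells (2.54% to 17.0%) and 5 of 260 cells (0.63% to 4.43%), with overlapping intervals. Without the 5 cells of each library richest in Kif7, the log2 ratio was -0.57, and with cells classed singly -0.56, both just within 1.5-fold. Leaving out 5 cells takes a larger part of the vehicle cells, which by itself tends to raise the ratio.

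Smo stood 1.67-fold lower in the teriparatide preOB-like cells (83 and 52 UMIs, log2 -0.74, -1.27 to -0.22). The class had 26 male-called and 22 female-called cells with vehicle and 36 and 6 with teriparatide, so this ratio also compares cells of unlike sex makeup. It was seen in 79.7% of the vehicle and 52.8% of the teriparatide cells, and in 28.6% and 17.6% after thinning. The 43 and 36 cells with none of the 3 mural genes had 122 and 77.3 CPM. The 16 and 17 cells with at least 1 of them had 112 and 56.6 CPM. No interval was computed for these Smo values, and the part of mural cells in the ratio was not tested. Markers of other classes differed in the preOB-like cells too, with all 5 MALP markers seen in both libraries at a summed 5577 and 2524 CPM and all 6 OB markers at 20427 and 46205 CPM. Their part in the Smo ratio was not tested. With a mitochondrial limit of 20% in place of 10%, which let in cells to make the class 142 and 98 cells, the log2 ratio was -0.47 and no member was called. Smo was within 1.5-fold in the COP-like (0.19, -0.09 to 0.48), OB-like (-0.15, -0.57 to 0.27) and MALP-like cells (0.18, -0.16 to 0.51).

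**Figure D5:**
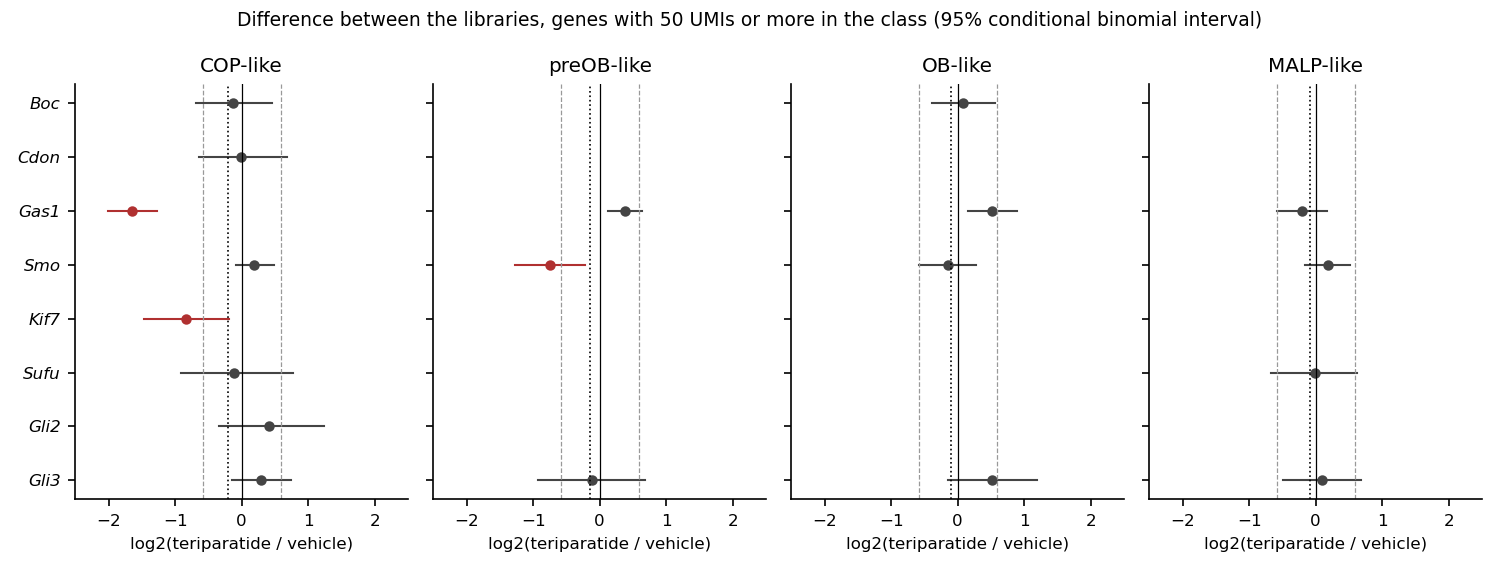
Log2 ratio of teriparatide to vehicle (horizontal axes) with its 95% conditional binomial interval, for members with at least 50 UMIs in a class. Ihh, at 6.37 in the COP-like cells, lies off the axis and is left out. Red marks ratios of 1.5-fold or more (dashed lines), which were Gas1 (-1.65) and Kif7 (-0.84) in COP-like and Smo (-0.74) in preOB-like cells, and the dotted line is the median of all genes tested.

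The other members had ratios within 1.5-fold wherever they had enough UMIs. In the COP-like cells Gli2 had a log2 ratio of 0.41 (-0.34 to 1.24), Gli3 0.29 (-0.14 to 0.74), Sufu -0.11 (-0.92 to 0.78), Boc -0.14 (-0.69 to 0.45) and Cdon -0.01 (-0.65 to 0.68). Some of these intervals reach past 1.5-fold, so that a difference of that size in Gli2, Gli3, Sufu, Boc or Cdon lies within counting error. Boc depended on few vehicle cells, of which 5 held 61.8% of its UMIs, and without the 5 richest cells of each library its log2 ratio was 0.93. Leaving out 5 cells takes a larger part of the 66 vehicle than of the 264 teriparatide COP-like cells, which by itself tends to raise the ratio. Within the class Boc was lower in the Cpm-led cluster (-0.75, -1.35 to -0.12) and higher in the Chad-led one (2.14, 0.19 to 5.24), the latter from 2 vehicle UMIs. Gli3 differed by -0.12 (-0.92 to 0.68) in preOB-like, 0.51 (-0.15 to 1.20) in OB-like and 0.10 (-0.49 to 0.68) in MALP-like cells, Sufu by -0.01 (-0.67 to 0.63) in MALP-like cells and Boc by 0.08 (-0.39 to 0.55) in OB-like cells. For comparison, Hhip was higher in the teriparatide COP-like cells by 0.62 (0.35 to 0.89), Gli1 by 0.92 (-0.08 to 2.11) and Ptch1 by 0.08. The clusters differed in this, with Hhip at 1.03 (0.68 to 1.39) in the Cpm-led, -0.52 (-1.05 to 0.03) in the Chad-led and 0.02 in the Ppa1-led cluster. Ptch1 stood at 0.71 (0.26 to 1.20) in the Cpm-led and -0.90 (-1.72 to -0.03) in the cycling cluster. Ptch1 was higher with teriparatide in the OB-like (4.63 and 13.1 CPM, 11 and 38 UMIs) and preOB-like cells (9.98 and 27.2 CPM, 7 and 20 UMIs). Both had too few UMIs for a call. In the MALP-like cells Ptch1 was lower by 0.92 (0.34 to 1.53), but male-called cells gave -0.39 (-1.17 to 0.39), within 1.5-fold. The 66 vehicle and 7 teriparatide female-called cells held 55 and 2 UMIs, a log2 ratio of -1.48 with an interval that included 0 (-4.56 to 0.44). Hhip in male-called COP-like cells, at 0.58 (0.30 to 0.87), was just within 1.5-fold, and in female-called cells it was 0.13 (-0.72 to 1.07).

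Cells that held the chain from co-receptor to Gli were found in all 4 main classes. A UMI each of Gli2 or Gli3, of Smo and of a co-receptor was seen together in 30.3% of the vehicle and 40.9% of the teriparatide COP-like cells, in 32.2% and 22.6% of the preOB-like, 12.4% and 14.6% of the OB-like and 23.2% and 27.5% of the MALP-like cells. The erythroid cells had 0 of 51 and 0 of 165. These shares depend on depth, and after thinning none was above 7.14%. The COP-like cells then had 0 of 65 with vehicle and 3 of 260 with teriparatide. The preOB-like cells had 4 of 56 and 1 of 51, and the MALP-like cells 2 of 123 and 3 of 79. The OB-like cells had 0 of 109 and 0 of 124. The COP-like share was thus not the highest after thinning in either library, though the counts are small and the intervals overlap. Smo and Ptch1 were seen together in 71.2% and 72.7% of the COP-like cells and in at most 24.8% of another class, and after thinning in 4.62% and 10.0% of the COP-like and at most 4.07% of the others.

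Of the wider pathway, genes that make or release ligand, build the cilium, work with Smo, or phosphorylate and degrade Gli proteins were counted in the same way. Their counts in the COP-like cells are to be read against the 8.29% of all genes higher and 16.9% lower there. The same shares were 8.64% and 18.0% in the preOB-like, 7.47% and 11.1% in the OB-like and 8.24% and 10.1% in the MALP-like cells. Where few genes of a list could be tested, single calls say little beside these shares. Of the 8 ligand and release genes 6 reached 50 UMIs in the COP-like cells, where 1 was higher and 0 lower. This was Scube1, of a family of secreted proteins that help free the ligand, at 7.73 CPM with vehicle and 31.9 CPM with teriparatide (log2 2.05, 1.27 to 2.94). Ext1, which builds the heparan sulfate chains that ligands bind, was the 1 gene of this list with enough UMIs in the preOB-like cells and was higher there, at 28.5 and 54.5 CPM. Of 18 cilium genes 15 could be tested in the COP-like cells, of which 3 were higher and 2 lower. Bbs2, a subunit of the cilium's BBSome, had 1.66 and 10.3 CPM (2.64, 1.04 to 4.94), and Ift88, needed for transport in the cilium, had 21.0 and 13.4 CPM (-0.64, -1.19 to -0.07). Ift172 (7.18 and 4.78 CPM) was the other lower gene and Bbs4 (3.31 and 6.03 CPM) and Ift122 (4.42 and 6.79 CPM) the other higher genes, with intervals that included 0. Tctn1, of the transition zone at the base of the cilium, was higher in the OB-like cells, where 3 cilium genes could be tested, at 3.79 and 15.2 CPM. Ift52 was higher in the MALP-like cells, where 4 could be tested, at 12.2 and 27.1 CPM. Among male-called cells Bbs4 (0.48) and Ift122 (0.27) were within 1.5-fold, and Ift52 was lower among female-called cells (15 and 1 UMIs).

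Of the 10 genes of the Smo and Evc complex group 7 could be tested in the COP-like cells, and 2 were higher and 0 lower. In the MALP-like cells 1 of 5 was higher and 1 lower. Evc2, which holds Smo near the base of the cilium, had 7.73 and 13.8 CPM (0.84, 0.03 to 1.76), and Iqce, its partner, 4.42 and 6.66 CPM (0.59, -0.49 to 1.88). Female-called cells gave -1.66 for Evc2, from 5 UMIs in each library, and -0.34 for Iqce. Mgrn1, a ubiquitin ligase, was in the MALP-like cells higher (20.8 and 42.9 CPM) and Arrb1, an arrestin, lower (26.3 and 15.7 CPM), the latter with an interval that included 0 and 0.24 among female-called cells. Of 12 kinase genes 11 were tested in the COP-like cells, and 2 were lower and 0 higher, a share near that of all genes. They were Ulk3, at 12.7 and 6.41 CPM (-0.99, -1.72 to -0.21), and Prkaca, a catalytic subunit of protein kinase A, at 23.7 and 15.7 CPM (-0.60, -1.11 to -0.06). Ulk3 was at 0.80 among female-called cells, from 2 and 11 UMIs, and Prkaca at -0.56 among male-called cells, within 1.5-fold. In the preOB-like cells 9 kinase genes could be tested. Prkacb, the other catalytic subunit, was higher (48.5 and 73.5 CPM) with an interval that included 0, and was at 0.57 among male-called cells, and Gsk3a was lower (58.4 and 27.2 CPM), with -0.39 among female-called cells. Of the 10 genes for ubiquitin and Gli stability, 10, 8, 9 and 9 had enough UMIs in the COP-like, preOB-like, OB-like and MALP-like cells, and 0 of these passed 1.5-fold.

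The genes whose levels ran most like each member were read from 18 sums of cluster and library, each of at least 10 cells. Pearson's r of log2(CPM + 1) was used, a description in which points share libraries and depth. The vehicle sums of the hypertrophic chondrocyte-like (7 cells) and the cycling cluster (4 cells) were left out, the former with most vehicle Ihh UMIs. Gli3 was most like Casp8ap2 (0.966), Nr2c2 (0.941) and Fam122a (0.927), and Smo like Arl6 (0.936), Bphl (0.919) and Stoml1 (0.917). Sufu was nearest to Slc50a1 (0.891), Ahcyl1 (0.884) and Egfr (0.878), and Gas1 to Nkd2 (0.901), Ikbkb (0.886) and Esr1 (0.873). For Boc the nearest were Dcn (0.820), Kif13b (0.798) and Dock1 (0.787), for Cdon Ccnh (0.839), Spata24 (0.827) and Tmem30a (0.807), and for Ihh Bcl2l1 (0.742), Wnk4 (0.735) and Cds1 (0.722). Gli2 and Kif7 had under 200 UMIs and were not ranked. Among the members the highest values were those of Gli2 with Cdon (0.768) and Gli3 with Smo (0.699), and the lowest that of Gas1 with Ihh (-0.555).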

How the data were processed

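The authors generated the libraries with the 10x Genomics 3' v2 kit, aligned the reads to mm10 and counted UMIs with Cell Ranger 2.1.0 per the submitters' processing notes, while the header of the deposited matrices names version 3.1.0. The deposited values are raw UMI counts per gene and barcode, 1 matrix per condition. Cells with 200 to 6000 genes and at most 10% mitochondrial UMIs were kept, integrated by canonical correlation analysis in Seurat 5.3.0 (R 4.3.3) and clustered on 20 principal components at a resolution of 0.6, with all listed genes left out of the 2000 variable genes. Mesenchymal cells with a Ptprc UMI were taken out before the final clustering. A cluster was named from at least 3 markers, each in 10% of its cells and above the mean of the other clusters. A cluster with a hematopoietic or erythroid marker among its 10 leading genes was left unnamed. Scrublet marked 1 vehicle and 0 teriparatide cells as doublets. Counts were summed per class and library. CPM have exact Poisson, ratios conditional binomial and shares Clopper-Pearson 95% intervals (scipy 1.17.1), which cover counting error only. The intervals of ratios alone were run on simulated Poisson counts. These have no clumping of UMIs in few cells, so the run checks the computation and not the fit to these data. A level of 0 was bounded by 3 UMIs. With 1 library per condition no p-value was computed. The named genes were the members, pathway genes past 1.5-fold with 50 UMIs (at most 4 per list and class), the target genes, the 3 genes most alike, and the marker and leading genes of clusters. The members, lists and tests were chosen with earlier results of these data known. The alternatives were a 20% mitochondrial limit, a resolution of 1.0, cells classed singly by markers, scaling by the median ratio, thinned cells, cells of each called sex, means of single cells, leaving out 5 cells or doublets, and UMI minima of 0, 20 and 100. Counting the low-depth cluster as MALP-like was added after seeing the data.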

Additional observations from a re-analysis of the deposited data

Results flagged for a closer look

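Gas1 had ratios of opposite sign in different classes. It was lower in the teriparatide library in the COP-like cells (log2 -1.65, -2.02 to -1.28) and higher, though within 1.5-fold, in the preOB-like cells (0.38, 0.13 to 0.64), a gap of 2.03 on the log2 scale. The gap between the OB-like cells (0.52, 0.16 to 0.89, also within 1.5-fold) and the COP-like cells was 2.17. With 1 library per condition the differences between the classes were not tested, and the preOB-like value was 0.05 at the 20% mitochondrial limit and -0.63 among female-called cells, and in cells with mural genes Gas1 had 326 CPM with vehicle and 174 CPM with teriparatide.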

How the results depend on the processing

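No paired analysis was possible because each condition had 1 library, and no replicate could be left out. Of 344 log2 ratios of members recomputed under the alternatives, 322 moved by less than their counting interval, 22 moved by more, and 0 of those called turned over. The total includes alternatives that changed few or no cells of most classes and so could hardly move a ratio. It also includes ratios of members with under 50 UMIs in a class, whose wide intervals could hardly be passed. A resolution of 1.0, leaving out doublets and counting the low-depth cluster as MALP-like each moved 0 of 33. The most moves came with female-called cells, 9 of 24, and with thinning, 5 of 29. The counts of members past 1.5-fold, 3 in COP-like, 1 in preOB-like, 0 in OB-like and 0 in MALP-like cells, were small and moved as follows. The 20% mitochondrial limit gave 0 in preOB-like cells. Classing cells singly gave 1 in COP-like, 2 in preOB-like and 1 in MALP-like cells, with 1 member highest in COP-like cells in the vehicle library and 97.7% of Ihh UMIs in hypertrophic chondrocyte-like cells. The median ratio as the scale gave 4 in COP-like and 2 in OB-like cells. Thinning, which left fewer UMIs, gave 1 in COP-like and 0 in preOB-like cells, 0 and 1 members highest in COP-like cells in the vehicle and teriparatide libraries, and 67.9% for the Ihh share. Male-called cells gave 2 in preOB-like cells and 0 members highest in COP-like cells in the vehicle library. Female-called cells, of which the hypertrophic chondrocyte-like class had 0, gave 0 in COP-like and 2 in MALP-like cells, 0 members highest in COP-like cells in either library and an Ihh share of 0%. Leaving out the 5 cells richest in each gene, which takes more from small classes, gave 2 in OB-like cells and 0 and 5 members highest in COP-like cells. With vehicle, Kif7 (12.3 CPM) and Cdon (8.40 CPM) then still had their highest levels in COP-like cells. They were not counted because their UMIs over the 4 classes fell under 50. With no minimum on UMIs the counts were 4 in preOB-like, 1 in OB-like and 2 in MALP-like cells. The cause of the other moves was not tested. Most members had under 100 UMIs in a class and library, so that differences near 1.5-fold were often not detectable at this depth.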

Other observations

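The barcodes that the limits removed, 737 with vehicle and 925 with teriparatide, also held the members. Gas1 stood there at 101 CPM with vehicle and 40.9 CPM with teriparatide (log2 -1.30, -1.58 to -1.02), Boc at 29.1 and 14.2 CPM (-1.04, -1.55 to -0.53) and Kif7 at 14.4 and 6.86 CPM (-1.07, -1.81 to -0.33). Sufu had 17.1 and 6.63 CPM (-1.37, -2.09 to -0.66), whereas Gli3 had 23.7 and 21.7 CPM. Ihh had 63 and 69 UMIs in these barcodes, at 24.5 and 15.8 CPM. These barcodes were not classed by cell type, so their makeup by class was not measured.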
